A study of Mus musculus with 6 samples.

Results

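Ras proteins are small GTPases that signal while bound to GTP. Guanine nucleotide exchange factors load them with GTP, and GTPase-activating proteins (GAPs) make them hydrolyse it, so the balance of these 2 classes sets the activity of the RAF, MEK and ERK kinase cascade. In B cells, the antigen receptor activates phospholipase C-γ2, which makes diacylglycerol, and diacylglycerol recruits the exchange factors RasGRP1 and RasGRP3 to membranes. SOS1 and SOS2 reach Ras by another route, through the adaptor Grb2. The 10 genes described here are 5 exchange factor genes (Rasgrp1, Rasgrp2, Rasgrp3, Sos1 and Sos2) and 5 GAP genes (Rasa1, Rasa2, Rasa3, Rasal3 and Nf1). Each was found by its symbol, and all 10 were among the 14864 genes with values. The set was chosen by role and, in part, selected on the measured fall of Rasgrp3 in the knockout, so the differences between the genotypes, and which of them pass a threshold, are a description of these genes, printed without p-values.

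RNA was sequenced from marginal zone B cells, the splenic B cells at the border of the white pulp, flow-sorted from the spleens of C57BL/6 mice at 8 weeks of age. By their labels, 3 libraries are wild type (WT) and 3 carry a conditional knockout (cKO) of CK2α, which is a catalytic subunit of casein kinase 2. The sources used here do not give the Cre driver, which exons were deleted or how the cells were gated, and nothing says that each library is from its own mouse, so p-values rest on differences between libraries that may be technical only. Values are normalised reads, that is, read counts divided by 1 factor per library, and 1 read was worth 0.891 to 1.10.

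Libraries held 18778776 to 23503756 reads. Csnk2a1, the gene of CK2α, stood at 4070, 3861 and 3939 normalised reads in the libraries labelled WT and at 4124, 3951 and 4060 in those labelled cKO, so the targeted message was not lower there. A count over the whole gene does not show a deleted exon, and every direction given here follows the labels. The pan-B markers Cd79a, Cd79b, Ms4a1, Pax5 and Ebf1 summed to 122820 to 135183 in WT and 131062 to 137981 in cKO, and no marker of this list passed the test. Of 8 marginal zone markers, 4 rose in cKO (Cd1d1, Cd9, Plac8 and Myof) and none fell, and their sum was 119282 to 130707 in WT and 122922 to 151720 in cKO. Myeloid markers (6 of 6 measured) summed to 938 to 1526 in WT and 976 to 1713 in cKO. By mean, Lyz2 was the highest in both groups, followed by Csf1r in WT and Cd68 in cKO. None passed the threshold, although Itgam (55 to 59 in WT, 72 to 104 in cKO) did not overlap. Dendritic cell markers (5 of 5 measured) summed to 311 to 355 in WT and 300.4 to 409 in cKO, and Zbtb46 of that list rose. Erythroid markers (4 of 4 measured) summed to 533 to 8645 in WT and 627 to 4043 in cKO, highest in WT replicate 2 and cKO replicate 1, and their part in the results was not tested.

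Rasgrp3, Rasgrp2 and Nf1, whose difference passed the threshold, are shown by the sequence around their annotated transcription starts. The choice follows that threshold alone and does not part genes that moved from genes that did not. Rasgrp1, Rasa1, Rasa2 and Sos2 were also lower in cKO without overlap. The windows run from 250 bases before to 50 bases after each start, 5′ to 3′ on the gene's strand, from RefSeq on GRCm38.p6. Capitals mark a GC box (GGGCGG) or an ETS-type motif (CCGGAAGT), on either strand.
Rasgrp3 upstream start, chr17:75435655-75435954, plus strand: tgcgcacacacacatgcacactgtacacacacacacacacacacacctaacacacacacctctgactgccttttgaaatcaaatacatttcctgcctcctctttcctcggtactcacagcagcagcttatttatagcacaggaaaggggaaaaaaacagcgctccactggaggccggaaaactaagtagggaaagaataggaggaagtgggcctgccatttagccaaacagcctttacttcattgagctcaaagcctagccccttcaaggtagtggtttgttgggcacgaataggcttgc
Rasgrp3 downstream start, chr17:75465288-75465587, plus strand: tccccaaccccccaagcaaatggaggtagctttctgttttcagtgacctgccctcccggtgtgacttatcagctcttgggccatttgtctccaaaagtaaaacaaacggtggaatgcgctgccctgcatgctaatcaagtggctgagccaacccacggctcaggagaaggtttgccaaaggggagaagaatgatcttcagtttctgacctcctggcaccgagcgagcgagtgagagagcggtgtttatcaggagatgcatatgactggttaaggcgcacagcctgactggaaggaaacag
Rasgrp2 upstream start, chr19:6399625-6399924, plus strand: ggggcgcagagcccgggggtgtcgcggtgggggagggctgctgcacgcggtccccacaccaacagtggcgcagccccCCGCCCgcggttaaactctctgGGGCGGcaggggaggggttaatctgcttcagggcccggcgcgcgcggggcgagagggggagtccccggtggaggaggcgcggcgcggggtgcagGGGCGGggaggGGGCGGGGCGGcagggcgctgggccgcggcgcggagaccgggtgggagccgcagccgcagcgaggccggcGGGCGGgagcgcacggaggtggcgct
Rasgrp2 downstream start, chr19:6401455-6401754, plus strand: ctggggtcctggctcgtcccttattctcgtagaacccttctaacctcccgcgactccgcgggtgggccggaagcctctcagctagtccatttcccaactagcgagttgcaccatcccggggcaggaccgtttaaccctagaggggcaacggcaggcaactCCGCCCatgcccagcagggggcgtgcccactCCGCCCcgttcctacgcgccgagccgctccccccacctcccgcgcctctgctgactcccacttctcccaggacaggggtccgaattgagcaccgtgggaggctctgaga
Nf1, chr11:79339642-79339941, plus strand: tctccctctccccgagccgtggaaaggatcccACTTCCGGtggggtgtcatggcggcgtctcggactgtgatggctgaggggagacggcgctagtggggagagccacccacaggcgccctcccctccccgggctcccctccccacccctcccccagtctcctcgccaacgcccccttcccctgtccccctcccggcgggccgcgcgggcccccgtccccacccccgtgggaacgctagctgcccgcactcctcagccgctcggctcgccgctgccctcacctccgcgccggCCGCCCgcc

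The Rasgrp3 windows held 5 and 9 CpG dinucleotides, with a GC content of 48.3% and 52.7%, where the medians were 7 CpG and 52.7% over 32851 windows of 27025 genes. The Rasgrp2 windows held 40 and 23 CpG and the Nf1 window 30. A GC box was found in 10 of the 13 windows of the 10 genes, against 35.7% of all windows, and was missing from the 2 Rasgrp3 windows and from that of Sos1. The windows with a GC box had a GC content of 57.7% to 82.7%, all above the median, and that of Sos1 70.0%. GC content was not matched in this count. The 2 Rasal3 windows, which begin at 32403533 and 32403532 on chr17, overlap and count the same GC box, so the windows are not independent. The ETS-type motif was in 1 of the 13 (Nf1), against 3.89% of all windows. The AP-1 motif (TGANTCA), the CRE (TGACGTCA) and the octamer (ATGCAAAT) were in none of the 13, against 7.81%, 1.79% and 1.74% of all windows, on either strand. These counts describe letters in windows and not sites in use.

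All 10 genes had a lower mean in the libraries labelled cKO, and for 7 of them the 3 cKO values lay below the 3 WT values. Of the 14855 genes tested, 50.2% had a lower mean log2 value in cKO, 31.6% had groups without overlap, and 15.6% had all cKO values below all WT values. In a limma fit over all of these genes, Rasgrp3, Rasgrp2 and Nf1 passed an adjusted p of 0.05, 3 of 10, all of them lower in cKO, where 10.1% of all genes were called, 4.97% lower and 5.08% higher. The median log2 difference, cKO minus WT, was -0.24 over the 10 genes and -0.00086 over all genes. Nothing is read from these shares, since the set was chosen with this comparison in view. The count depended on the fit, from 1 with a follicular B cell score as a covariate to 6 with robust moderation or DESeq2, with 2 called without WT replicate 1 or without cKO replicate 3 and 5 without cKO replicate 2.

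**Figure D1:**
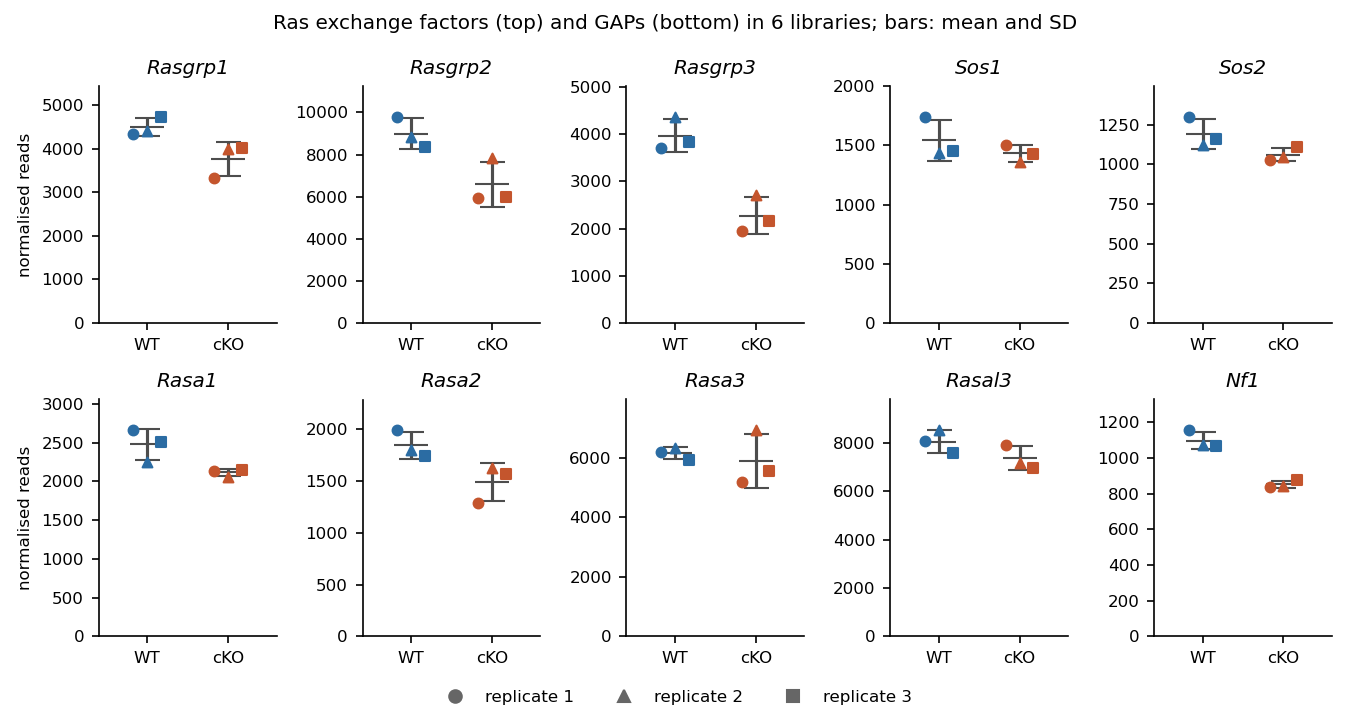
Normalised reads (linear axes from 0) of the 5 exchange factor genes (top) and the 5 GAP genes (bottom) in each of the 3 WT and 3 cKO libraries, with mean and SD as bars and the replicate number as the marker shape. Rasgrp3 has the widest gap between the groups relative to its level, while Sos1, Rasa3 and Rasal3 overlap.

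Rasgrp3 (ENSMUSG00000071042), a diacylglycerol-binding exchange factor found in B cells, was at 3717, 4366 and 3824 normalised reads in WT replicates 1, 2 and 3. It was at 1941, 2716 and 2164 in cKO replicates 1, 2 and 3. The groups were 1001 normalised reads apart at their nearest, with cKO replicate 2 the closest to WT. The mean fell by 42.7%, from 3969 ± 348 to 2273 ± 399 (SD, n = 3 each), a log2 difference of -0.81 ± 0.11 (standard error). Its lowest library held 2097 reads, which gives a counting error of 2.18%, against a replicate spread of 8.77% in WT and 17.6% in cKO. Of all genes tested, 337 had a lower log2 difference than Rasgrp3.

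Rasgrp1 (ENSMUSG00000027347) encodes the related diacylglycerol-binding factor best known from T cells. It gave 4343, 4413 and 4737 normalised reads in WT and 3329, 3998 and 4013 in cKO. The groups did not overlap, and cKO replicate 1 was the lowest. The log2 difference was -0.25 ± 0.08, short of the threshold. T cell markers were few in number: 3 of 8 were measured, Cd4 and Cd8a stood between 6.20 and 29.3, and Lck, which some B cells also express, between 298 and 686. All 3 were lower in cKO without overlap, and Lck passed the threshold (-0.79 ± 0.13, limma adjusted p = 0.00534). The sum of these 3 markers was 627 to 723 in WT and 321 to 462 in cKO, and its part in the Rasgrp1 values was not tested.

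Rasgrp2 (ENSMUSG00000032946) encodes a calcium-regulated exchange factor that acts mainly on Rap1 and is known from platelets. Its values were 9789, 8840 and 8339 normalised reads in WT and 5949, 7818 and 5977 in cKO. The groups did not overlap, and cKO replicate 2 again lay nearest to WT, with the other two cKO libraries close together. It fell from 8990 ± 737 to 6581 ± 1071, a log2 difference of -0.46 ± 0.10. The difference no longer passed without WT replicate 1 (-0.40), without cKO replicate 3 (-0.40) or with the follicular score (-0.20). Platelet markers (3 of 5 measured) summed to 183 to 194 in WT and 183 to 206 in cKO. That sum joins opposite moves. Itga2b was lower in cKO without overlap (55.8 to 62.2 in WT, 27.9 to 49.9 in cKO). Gp1ba was higher without overlap (105.4 to 118.4 in WT, 119.5 to 163 in cKO). Ppbp overlapped, no platelet marker passed the threshold, and their part in the Rasgrp2 values was not tested. Rasgrp2 shares 265 exon bases with Gm14965 on the opposite strand, and without a known strand setting their reads cannot be told apart.

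Sos1 and Sos2, the exchange factors that Grb2 carries to receptors, differed less. Sos1 (ENSMUSG00000024241) was at 1740, 1434 and 1452 normalised reads in WT and 1503, 1363 and 1429 in cKO. The groups overlapped, and WT replicate 1 stood above the other 5 libraries. Its log2 difference of -0.10 ± 0.08 had a 95% interval of -0.28 to 0.07. Sos2 (ENSMUSG00000034801) was at 1299, 1121 and 1158 in WT and 1030, 1047 and 1106 in cKO, groups that lay 15.2 normalised reads apart at their nearest. Its log2 difference was -0.17 ± 0.07 and did not pass.

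Among the GAP genes, Nf1 (ENSMUSG00000020716), which encodes neurofibromin, had the smallest spread within groups on the log2 scale (pooled SD 0.051). It gave 1154, 1073 and 1065 normalised reads in WT and 839, 841 and 874 in cKO. No value overlapped, and the spread in cKO (2.30%) was below the counting error at its lowest count of 847 reads (3.44%). Nf1 fell from 1097 ± 49.2 to 851 ± 19.6, a log2 difference of -0.37 ± 0.06. With the follicular score the value was -0.38 and no longer passed.

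Rasa1 and Rasa2 encode GAPs that act on Ras, the former the p120 protein that binds phosphorylated receptors. Rasa1 (ENSMUSG00000021549) was at 2656, 2254 and 2513 in WT and 2135, 2061 and 2150 in cKO, with a log2 difference of -0.22 ± 0.07. Rasa2 (ENSMUSG00000032413) was at 1988, 1800 and 1741 in WT and 1283, 1626 and 1564 in cKO, with -0.31 ± 0.09. Neither gene had overlapping groups, and neither passed the threshold. Rasa1 shares 12 exon bases with Ccnh on the opposite strand.

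Rasa3 (ENSMUSG00000031453) encodes a GAP for Ras and Rap1 held at the membrane by phosphoinositides. It was at 6195, 6323 and 5929 in WT and 5183, 6913 and 5550 in cKO. The highest and the lowest of the 6 values were both in cKO, and the log2 difference was -0.07 ± 0.09, with a 95% interval of -0.27 to 0.13. Rasal3 (ENSMUSG00000052142), a GAP gene expressed mainly in blood cells, was at 8093, 8529 and 7575 in WT and 7941, 7191 and 6989 in cKO. Its groups overlapped, with -0.13 ± 0.07 and an interval of -0.27 to 0.01. It shares 635 exon bases with an antisense gene, CT485616.1. For Sos1, Rasa3 and Rasal3 the intervals include 0, which does not show that these genes were the same in the 2 groups.

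**Figure D2:**
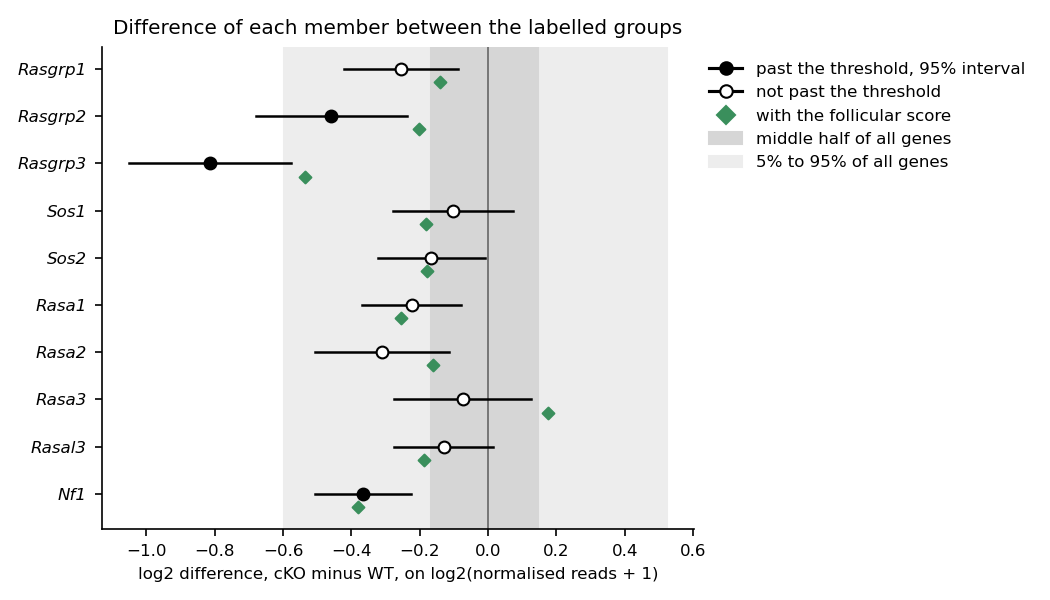
Log2 difference (cKO minus WT) of each gene with its 95% interval from limma; filled circles passed an adjusted p of 0.05, diamonds give the value with the follicular score as a covariate, and the grey bands hold the middle 50% and the 5% to 95% range (-0.60 to 0.52) of all genes. The bands are those of the fit without the score. Rasgrp3 lies at -0.81, with its diamond at -0.54.

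Levels were compared between genes per length, as normalised reads per kilobase of the principal transcript in GENCODE M21. In WT the order was Rasgrp2 (3915 ± 321), Rasal3 (2191 ± 130), Rasa3 (1396 ± 45.7), Rasgrp1 (860 ± 40.3), Rasgrp3 (841 ± 73.8), Rasa1 (542 ± 44.6), Rasa2 (317 ± 22.1), Sos2 (213 ± 16.7), Sos1 (183 ± 20.4) and Nf1 (92.1 ± 4.13; SD, n = 3). Of the 9 pairs of neighbours in this order, 2 overlapped in range, Rasgrp1 with Rasgrp3 and Sos2 with Sos1, and 7 did not. Rasgrp2 lay above 97.8% of 11750 protein-coding genes in WT, Rasgrp3 above 84.9%, and Nf1 above 30.3%. The order of means in cKO was the same. The order depends on the length used. Over the merged length of all annotated exons, Rasgrp2 took place 4, behind Rasal3, Rasa3 and Rasgrp1. On that length Rasgrp1 stood at 803 and Rasgrp3 at 680 per kilobase in WT, Sos1 took place 7 and Rasa2 place 9.

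**Figure D3:**
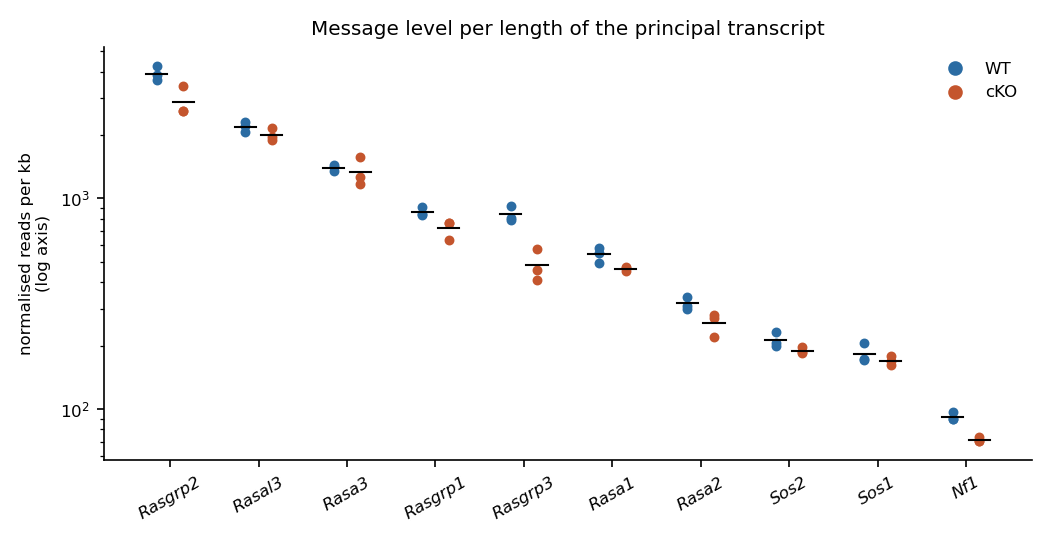
Normalised reads per kilobase of principal transcript (log axis) for the 10 genes in the order of their WT means; points are libraries and lines are group means. On this length, Rasgrp1 and Rasgrp3 had overlapping values in WT (means 860 and 841) and lay apart in cKO (723 and 482). Over the merged exon length their WT means were 803 and 680.

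On the same scale, the 3 Rasgrp messages together gave 5616 ± 267 normalised reads per kilobase in WT and 4071 ± 592 in cKO. Rasgrp3 made up 13.4%, 16.5% and 15.1% of that sum in WT replicates 1, 2 and 3. In cKO replicates 1, 2 and 3 it made up 11.3%, 12.1% and 11.97%, each below the lowest WT share. The share of Rasgrp2 was 69.6% ± 2.49 in WT and 70.3% ± 2.04 in cKO, and that of Rasgrp1 15.4% ± 1.44 and 17.9% ± 1.99. These shares depend on the short principal transcript taken for Rasgrp2.

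Follicular B cell markers, genes of the subset that fills the splenic follicles, moved with several of these genes. The sum of the 3 used here (Fcer2a, Ccr7 and Klf2) was 15934 to 16546 in WT and 9562 to 16253 in cKO. Their mean log2 value, after centring, came to 0.24, 0.22 and 0.29 in WT and -0.54, 0.23 and -0.44 in cKO replicates 1, 2 and 3. Of the cKO libraries, replicate 2 thus had a score within the WT range, and within cKO it also had the highest Rasgrp2, Rasgrp3, Rasa2 and Rasa3. Klf2 (-0.48 ± 0.09, limma adjusted p = 0.0117) and Ccr7 (-0.55 ± 0.15, adjusted p = 0.0436) fell without overlap. Fcer2a (-0.47 ± 0.25, adjusted p = 0.25) had overlapping groups. In cKO replicate 2, Fcer2a (7644.5) lay above all WT libraries, but Klf2 (5851) and Ccr7 (2758) lay below them. With the score as a covariate, Rasgrp3 gave a log2 difference of -0.54, Rasgrp1 -0.14, Rasa2 -0.16 and Rasa3 0.17. Nf1, Rasa1, Sos1, Sos2 and Rasal3 gave -0.38, -0.26, -0.18, -0.18 and -0.19 in that fit, each below its value without it. Marginal zone markers moved the other way. Cd1d1, which encodes a lipid-presenting molecule, rose from 5276, 4621 and 6040 normalised reads in WT to 9373, 6805 and 9986 in cKO (log2 0.70 ± 0.13, limma adjusted p = 0.0104). Cd9 (0.50 ± 0.07, adjusted p = 0.00303), Plac8 (0.50 ± 0.09, adjusted p = 0.00753) and Myof (0.46 ± 0.08, adjusted p = 0.00901) rose too. In each of these 4 genes cKO replicate 2 was the cKO library nearest to WT, while Cr2 (0.07 ± 0.09), S1pr1 and S1pr3 had overlapping groups. Dtx1 was higher in cKO without overlap but did not pass (0.24 ± 0.07, limma adjusted p = 0.0587). The part of B cell subsets in the values of the 10 genes was not tested. Without cKO replicate 2 the Rasgrp3 difference was -0.95 and that of Rasgrp2 -0.59. In bulk RNA, a change in the share of cells of a type and a change in RNA per cell cannot be told apart.

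**Figure D4:**
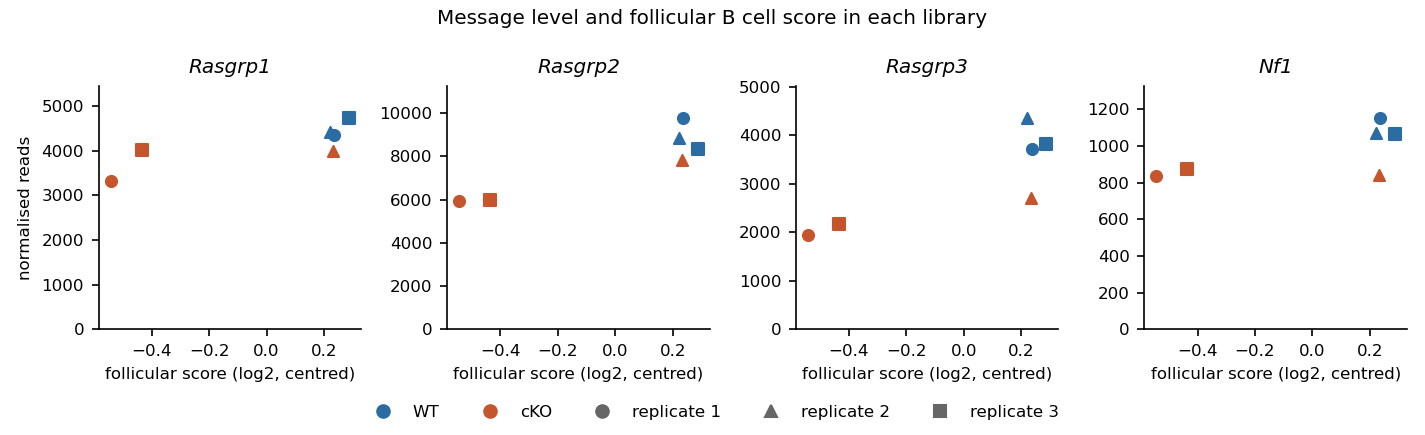
Normalised reads (linear axis from 0) of Rasgrp1, Rasgrp2, Rasgrp3 and Nf1 against the follicular score of the same library (mean log2 of 3 markers, centred), with colour for the group and marker shape for the replicate. The cKO replicate 2 triangle lies among the WT libraries in score (0.23) but below them for Rasgrp1 (3998), Rasgrp2 (7818), Rasgrp3 (2716) and Nf1 (841).

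The genes most like Rasgrp3 over the 6 libraries, by Pearson's r of log2 values among 9413 other genes with a mean of at least 100, were Ralgps2 (r = 0.998), which encodes an exchange factor for Ral, then Gnptab (0.997), Rfc1 (0.997), the kinase gene Tec (0.995) and Ube2h (0.995). Ralgps2 went from 15113 ± 375 to 12401 ± 636 normalised reads and Tec from 2534 ± 175 to 1644 ± 288. Drd5 (-0.998) and Crim1 (-0.996) were the most opposite. Among the 10 genes, Rasgrp2 was the most like Rasgrp3 (0.92), then Nf1 (0.88), Rasgrp1 (0.87) and Rasa2 (0.86), and Sos1 was the least (0.22). The 6 points share the gap between the groups, which sets much of each r.

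The rest of the pathway was described by 7 lists of other genes, of which 93 of 100 were measured. Of these, 3 rose and 12 fell, where 5.08% of all genes tested rose and 4.97% fell. Early targets gave 5 of the falls, and the fall of that list was known when it was made. Of 12 Ras, Rap and Ral GTPase genes, none passed the limma test, while 1 had an unadjusted p under 0.05 and edgeR and DESeq2 called 0. Rap1b, the highest in value, was at 4806 ± 80.1 in WT and 4658 ± 268 in cKO. The median of that list was 0.02, and 1 gene passed without cKO replicate 2.

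Of 13 other exchange factor genes, 1 rose and 2 fell, with a median of -0.08. Ralgps2, the Ral exchange factor gene named above, was not on this list. Rapgef4, which encodes a cyclic AMP-activated exchange factor for Rap, fell from 942, 1032 and 938 normalised reads to 464, 551 and 549. The log2 difference was -0.90 ± 0.09 (limma adjusted p = 0.000321), and it passed in each of the 17 alternatives. Rasgrf2, a calcium-regulated factor, fell from 135 ± 18.2 to 78.0 ± 6.78 (-0.78 ± 0.16, adjusted p = 0.0164). Rasgrp4, the RasGRP gene known from mast cells, rose from 140 ± 21.3 to 230 ± 15.7 (0.72 ± 0.14, adjusted p = 0.0123), so it moved opposite to Rasgrp2 and Rasgrp3. Of 6 myeloid markers, 2 had a lower mean log2 value in cKO, while Itgam was higher without overlap. The part of other cell types in the Rasgrp4 values was not tested. Rasgrf2 lost its call without WT replicate 1 (limma adjusted p = 0.0705), without WT replicate 3 (0.0783) and with the follicular score (0.0974), and Rasgrp4 without cKO replicate 3 (0.0582) and with the score (0.15). Rapgef4 shares 337 exon bases with the antisense gene Rapgef4os2 and Rasgrp4 shares 978 with Fam98c, whose reads cannot be told apart without strand. Of 14 other GAP genes, none passed in limma or edgeR, 6 had an unadjusted p under 0.05, and DESeq2 called 1, while limma called 2 without cKO replicate 2. Sipa1, a Rap GAP gene, had the highest value of them at 19202 ± 291 in WT and 19915 ± 425 in cKO.

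Of 19 genes at or beside the diacylglycerol step, 4 fell and none rose, with a median of -0.06. Not all of them lie upstream of RasGRP proteins. The list also holds protein kinase C genes and the adaptor genes Shc1 and Grb2, the latter of the SOS route. Prkcd and Prkca, genes of protein kinases C that diacylglycerol also activates, fell from 6245 ± 440 to 4971 ± 321 (-0.33 ± 0.07, limma adjusted p = 0.0151) and from 721 ± 54.0 to 532 ± 57.2 (-0.44 ± 0.09, adjusted p = 0.0185). Dgkh, a diacylglycerol kinase gene, fell from a mean of 116 to 69.8 (-0.72 ± 0.19, adjusted p = 0.0372). Lat2, an adaptor gene of the receptor, fell from 2274 ± 67.4 to 1973 ± 103 (-0.21 ± 0.06, adjusted p = 0.0494). Blnk, the adaptor gene that links the receptor to phospholipase C-γ2, was at 10844 ± 413 and 10746 ± 939. Dgkh lost its call with any of the 6 libraries left out. Lat2 was called in 8 of 17 alternatives and lost its call with TMM scaling (adjusted p = 0.0539), edgeR (0.0546), the replicate block (0.0563), the follicular score (0.359) and each library left out except cKO replicate 2. In this list 0 genes passed without WT replicate 1 or with the follicular score, 1 without WT replicate 3 or cKO replicate 3, and 2 without WT replicate 2 or cKO replicate 1. Lat2 shares 952 exon bases with Rfc2 on the opposite strand, and Dgkh shares 819 with Gm48998 on the same strand.

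Of 13 genes of the RAF, MEK and ERK step, none passed in limma, edgeR or DESeq2, 5 had an unadjusted p under 0.05, and the median was 0.04. Map2k1, the MEK1 gene, was at 4144 ± 180 and 4703 ± 320, with a log2 difference of 0.18 ± 0.06 (limma adjusted p = 0.0892). Without cKO replicate 2, 2 genes of this list passed.

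Of 11 feedback inhibitor genes of the pathway, 2 rose and 1 fell, with a median of -0.06. Errfi1, which encodes an inhibitor of the EGF receptor family, rose from 107 ± 4.63 to 222 ± 22.9 (1.05 ± 0.13, limma adjusted p = 0.00126). Dusp5, the gene of a nuclear ERK phosphatase, rose from 299, 242 and 261 to 455, 615 and 336 (0.77 ± 0.18, adjusted p = 0.0247). Spred1, whose protein brings neurofibromin to the membrane, fell from 124 ± 23.0 to 70.9 ± 19.4 (-0.82 ± 0.23, adjusted p = 0.0474), in the same direction as Nf1. Dusp5 shares 547 exon bases with AC137853.2 on the opposite strand. Dusp6, the gene of the cytoplasmic ERK phosphatase, was at 1681 ± 214 and 1609 ± 63.2. Only 1 gene of this list passed when any of the 3 WT libraries was left out, and Spred1 also lost its call without cKO replicate 1 or cKO replicate 3.

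Of 11 early target genes that ERK signalling can induce, 5 fell and none rose, and all 11 had a lower mean in cKO, with a median of -0.67. Fos fell from 8830 ± 656 to 5585 ± 899 (-0.67 ± 0.10, limma adjusted p = 0.0044) and Fosb from 12053 ± 2413 to 5524 ± 1468 (-1.15 ± 0.18, adjusted p = 0.00481). Egr3 (-0.74), Nr4a1 (-0.76) and Myc (-0.45) also fell, with limma adjusted p of 0.0253, 0.0414 and 0.0428. The Nr4a1 groups overlapped. Egr3 passed in 11 of 17 alternatives, Nr4a1 in 10 and Myc in 12. Robust moderation lost all of these and Fosb, and DESeq2 lost Nr4a1 and Myc. For Fos, Fosb and Myc, cKO replicate 2 had the lowest value of the 6 libraries (4565, 3829 and 7501). For Egr3, Nr4a1, Phlda1, Etv5, Ier2, Junb and Egr1 it had the highest of the cKO group, as it did for Rasgrp3. For Egr2 it lay between the other cKO libraries. The genes of this list also respond to tissue dissociation, other pathways induce them, and their fall in these libraries was known when the list was made. The count of calls was 2 without WT replicate 1, WT replicate 3 or cKO replicate 3, 3 without cKO replicate 1, 8 without cKO replicate 2, 3 with DESeq2 and 1 with robust moderation.

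**Figure D5:**
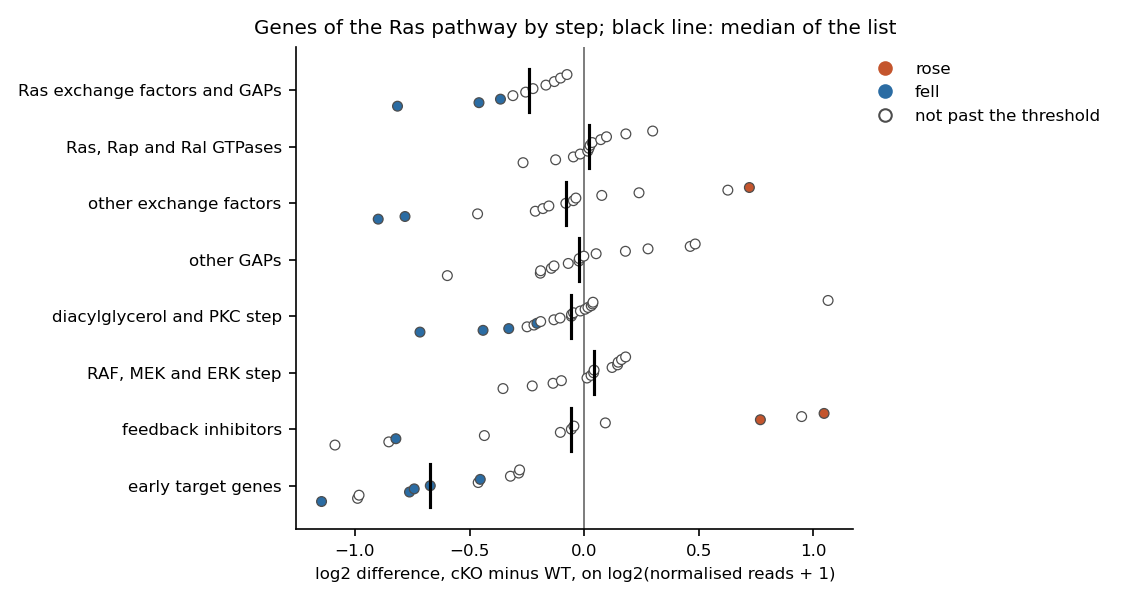
Log2 difference (cKO minus WT) of each measured gene by step of the pathway; filled points passed an adjusted p of 0.05 and black lines are list medians. The GTPase and RAF, MEK and ERK lists have no filled point, while the early targets have a median of -0.67.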

How the data were processed

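The authors deposited 1 table of normalised counts, a signal per gene. Its values show 1 scaling factor per library: 100.0% of the values in each library were whole multiples of 1 read, within 0.02 of a read. The submitters' processing notes list STAR 2.5.2b, Trimmomatic 0.36, bcl2fastq 2.17 and mm9. The sources used here do not give the counting or normalization tool, the annotation or the strand setting. GENCODE M21 named 14808 of the 14864 identifiers and gave transcript lengths. Each gene had at least 61 reads over the 6 libraries.

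Differences were tested with limma 3.58.1 (R 4.3.3, trend, two-sided) on log2(value + 1), with genotype as the only term, for the 14855 genes with a mean of at least 10. Log2 differences are on that scale, and p-values were adjusted by Benjamini-Hochberg over all of them at 0.05. The script was tested on simulated data. The alternatives were other pseudocounts (0.5 and 4), no filter or a mean of at least 100, 2 rescalings, robust moderation, edgeR 4.0.16 and DESeq2 1.42.0 on recovered reads, a replicate block, a follicular score and each library left out. Replicate libraries differed beyond sampling noise (chi-square per gene 6.37 to 12.7).

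The genes and lists were chosen with earlier results of these data known. Named are the 10 genes, from each pathway list up to 4 called genes with the smallest adjusted p and the 2 with the highest mean (the text gives some of these), and the 5 genes most like Rasgrp3. Drd5 and Crim1 were named after their values were seen. Of the marker lists, 1 pan-B and 1 follicular marker are not reported here and were left out of the sums and of the follicular score, after the data were seen. No protein sequences were used here.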

Additional observations from a re-analysis of the deposited data

How the results depend on the processing

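Over 17 alternatives, the log2 difference of Rasgrp3, which the choice of genes used, ranged from -0.95 to -0.54, the latter with the follicular score as a covariate. Rasa3 ranged from -0.20 to 0.17 with no call, above 0 with the follicular score and without cKO replicate 1. The other 8 genes stayed lower. Calls among the 10 genes were 5 with equal totals without immunoglobulin genes, 6 with robust moderation, 6 with DESeq2, 5 with the replicate block, 1 with the follicular score and 2 to 5 with a library left out. Over all genes, 1494 calls became 236 with the follicular score, 1551 with the replicate block and 497 to 1730 with a library left out (WT 1 gave 510, WT 3 497, cKO 1 927 and cKO 3 531 when left out). Same-numbered libraries did not deviate together (correlations of -0.07, -0.02 and 0.15), so the numbers were not taken as pairs, and the block is no evidence on the size of an effect. The score is confounded with genotype in part, and the cause of the loss was not tested. In the pathway lists, with the follicular score 1 other exchange factor gene, 0 genes of the diacylglycerol step, 2 feedback inhibitors and 3 early targets were called. DESeq2 and the replicate block each called 1 other GAP gene. Early targets gave 1 call with robust moderation and 3 with DESeq2. With a library left out, the ranges were 0 to 1 for GTPases, 2 to 3 for other exchange factors, 0 to 2 for other GAPs, 0 to 5 for the diacylglycerol step, 0 to 2 for the RAF, MEK and ERK step, 1 to 4 for feedback inhibitors and 2 to 8 for early targets. Of the called pathway genes that the text names, Rapgef4, Fos and Errfi1 passed in all 17, while leaving out WT 1, 2 and 3 lost 10, 4 and 9 calls, and leaving out cKO 1, 2 and 3 lost 5, 1 and 8. The follicular score in its present form and the merged exon length were chosen after seeing the data. The latter moved Rasgrp2 from place 1 to 4 and Rasgrp1 from 4 to 3 in the WT order. It also moved Rasal3 from 2 to 1, Rasa3 from 3 to 2, Rasa2 from 7 to 9 and Sos1 from 9 to 7. Counts of the 10 genes were high enough (847 reads or more) that replicate spread, not depth, limited most of them.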
